A study of Caenorhabditis elegans with 4 samples.

Results

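The regions described here are BLMP-1 binding peaks that lie in dense chains along the chromosomes of Caenorhabditis elegans larvae. A chain is a run of peaks in which each peak starts less than 1000 bp after the end of the one before it, and chains of at least 5 peaks were kept. This gave 63 chains with 372 peaks, 3.66% of the 10159 peaks in the list. The members were chosen by the start and end positions of the called peaks, so their closeness is not a result. Widths, q values and tag counts come from the same peak calls. They are given as descriptions, with no test.

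The factor, BLMP-1, has zinc fingers and a PR domain and is the worm relative of vertebrate PRDM1 (Blimp-1), a repressor known from the maturation of antibody-secreting cells. In worms it is known for the timing of larval development, including the migration of the gonadal leader cells and the formation of the epidermis and its cuticle. Chromatin immunoprecipitation with sequencing recovers DNA crosslinked to a protein, and a peak is a stretch where the recovered fragments exceed those of input DNA. Several peaks close together can mark separate bound elements, such as neighbouring promoters and enhancers, or stretches of 1 broad enriched region. The list cannot tell these apart.

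The worms were hermaphrodites of strain OP109 at the fed L1 stage, the first larval stage, grown at 20 °C. They were unc-119 (ed3) III mutants with the transgene wgIs109, introduced by particle bombardment, which holds blmp-1 fused to TY1, EGFP and FLAG and a normal copy, unc-119 (+). No mutation of the native blmp-1 gene is listed. All libraries share this genotype, so no strain without the tagged protein serves as a control. The libraries were 2 of ChIP DNA, recovered with goat anti-EGFP, and 2 of input DNA, numbered 1 and 2 within each group. Whole animals were used, so peaks of 1 chain need not be bound in the same cells. The labels give the stage as fed L1, while their lysis protocol speaks of embryos.

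The deposited values were 1 combined list of peaks from the caller PeakSeq on WormBase build WS180, with a q value for each peak. No value of a single library was listed, so replicate error and sequencing depth are unknown and no difference below was tested across libraries. ChIP and input tag counts were inferred from the q values, as described under the processing, and gave exactly 1 pair of whole counts for 10155 of the 10159 peaks and for 372 of the 372 members. The ratio of ChIP to input tags of a peak is called its ratio below, and input is as scaled by the caller. The inferred ranks of the list start at 13, so 12 ranks at its top belong to regions not analysed here, and a region among them could have lengthened or joined chains. Which genes lie at the chains was not analysed here.

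Of the 63 chains, 31 had the smallest size kept, 5 peaks. A further 19 had 6 peaks, 8 had 7 and 2 had 8, and there was 1 chain each of 9, 10 and 12. Chains spanned a median of 5981 bp, with quartiles of 4898 and 7280 bp, a shortest of 2854 bp and a longest of 19782 bp. Peaks filled a median of 61.7% of a chain's span, from 31.5% to 85.5%. Together the chains spanned 425 kb, of which 271 kb lay inside peaks. The members held 4.97% of the length of all peaks, 5.31% of the inferred ChIP tags and 4.59% of the inferred input tags. Their share of ChIP tags was thus above their share of input tags.

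**Figure D1:**
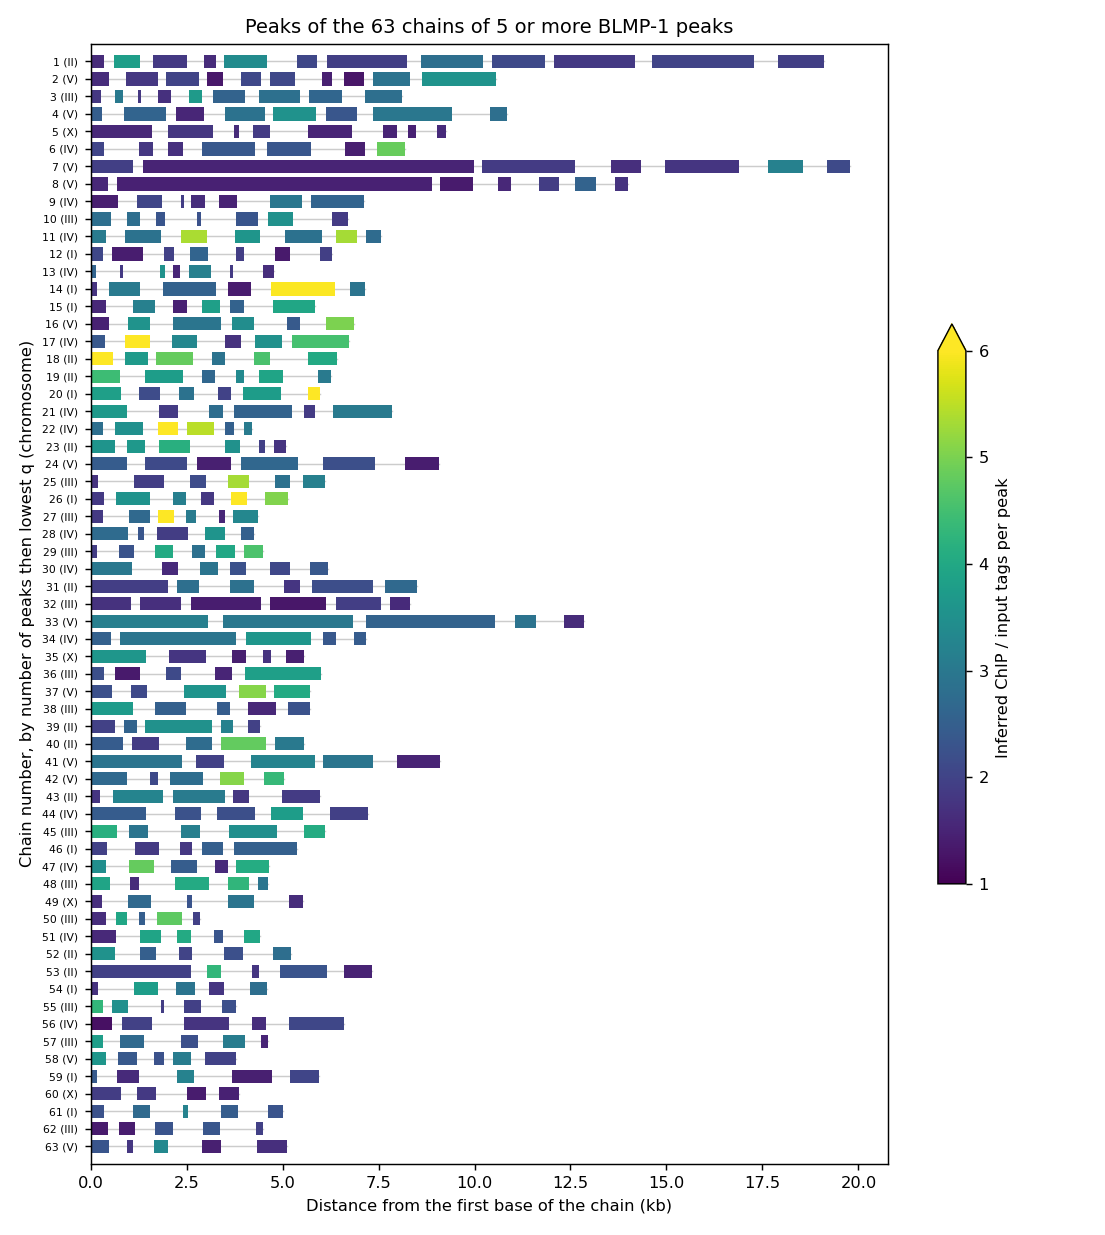
Each row is 1 of the 63 chains, numbered by its number of peaks and then by lowest q, with its chromosome in brackets. Bars are peaks drawn to scale in kb from the first base of the chain, coloured by inferred ChIP over input tags. The middle chains span 4898 to 7280 bp (quartiles) and mix peaks of high and low ratio. The longest, numbers 1, 7 and 8, also mix ratios and hold wide peaks of low ratio.

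Gaps inside the chains had a median of 465 bp over 309 gaps, with quartiles of 297 and 672 bp. In chains of 2 to 4 peaks the median of 2259 gaps was 541 bp, with quartiles of 352.5 and 728 bp. Midpoints of neighbouring members were a median of 1145 bp apart, with quartiles of 856 and 1396 bp. The list holds no gap under 200 bp, so nearer peaks, if any, appear as 1. At the edge of the rule, 21 inner gaps ran from 900 to 994 bp, and 8 gaps that end a chain ran from 1000 to below 1100 bp. Just outside the rule lay 140 chains of 4 peaks, whose 560 peaks had a median width of 503.5 bp and a median ratio of 2.31. Just inside it, the 155 peaks of chains of 5 had medians of 509 bp and 2.37. The limit of 5 peaks thus falls between chains with near medians.

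The chain with most peaks lay on chromosome II from 6820259 to 6839356, with 12 peaks in 19.1 kb. Its lowest q, 4.04e-161, belonged to the eighth peak from the left, from 6828861 to 6830476, with 2339 ChIP and 835 input tags and a ratio of 2.80. The highest ratios were those of the second peak, 3.79 (q = 1.24e-79), and the fifth, 3.39 (q = 5.12e-96). Both are on the left side of the chain. The first and the fourth peaks were narrow and weak, with widths of 353 and 302 bp, q values of 8.03e-06 and 5.28e-06 and ratios of 1.61 and 1.62. The third peak had a width of 887 bp and a ratio of 1.83, and the sixth a width of 521 bp and a ratio of 2.06. From the seventh peak on the peaks were wide, and all of them but the eighth had low ratios. The seventh peak was 2093 bp wide, the ninth 1370 bp, the tenth 2122 bp, the eleventh 2657 bp and the last 1195 bp. Their ratios were 1.92, 2.10, 1.84, 2.00 and 1.92 in that order, with q values of 1.94e-70, 9.35e-59, 1.00e-52, 3.14e-67 and 2.98e-33. No peak held more than 16.4% of the chain's ChIP tags, the lowest such share among the 63 chains. The lowest share possible falls with the number of peaks, so this chain of 12 peaks had the most room for a low one.

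The chain on V from 14498102 to 14508670 had 10 peaks in 10.6 kb and was strongest at its right end. The last peak, 1947 bp wide, had the lowest q, 2.63e-181, with 1950 ChIP and 547 input tags and a ratio of 3.56. The ninth, 973 bp wide, followed with q = 1.06e-86 and a ratio of 2.90. The other 8 peaks had ratios from 1.28 to 2.09. Among these, the third and the sixth had the lowest q values, 3.01e-26 and 2.15e-26, at widths of 857 and 648 bp. The fifth peak had q = 1.67e-20, the second 1.08e-15 and the first 2.81e-07. The fourth, seventh and eighth peaks came close to the caller's limit, with q values of 0.00228, 0.00849 and 0.00628. Without these 3 weak calls the run of gaps under 1000 bp would be broken.

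The chain on III from 2868459 to 2876574 had 9 peaks in 8.12 kb, and each peak from the fifth on had a lower q than the first 4. The last peak, 972 bp wide, had the lowest q, 1.12e-76, with 1095 ChIP and 389 input tags and a ratio of 2.81. The sixth peak had 930 ChIP and 361 input tags (q = 2.96e-57, ratio 2.58). The fifth peak had the highest ratio of the chain, 3.70 (q = 1.01e-30), in only 354 bp. The seventh and eighth, 1090 and 846 bp wide, had ratios of 2.82 and 2.64. Their ChIP tags per kb were 375 and 530 and their input tags per kb 133 and 201. The lower quartiles over all members were 587 and 236. The first 4 peaks were narrow, from 97 to 331 bp. Their q values were 3.48e-05, 4.33e-09, 0.0044 and 3.67e-05, and their ratios were 1.81, 3.03, 1.81 and 1.69.

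**Figure D2:**
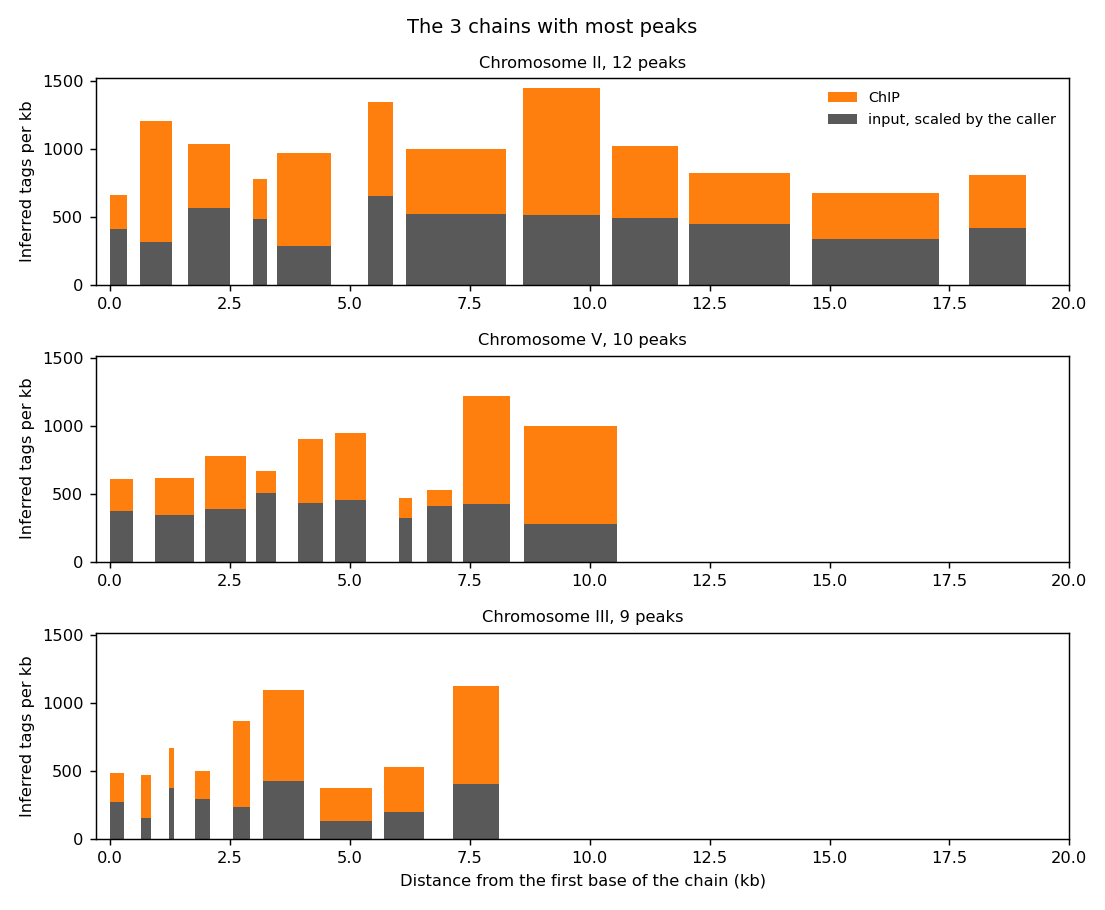
Inferred ChIP tags (orange) and input tags as scaled by the caller (grey) per kb of each peak in the 3 chains with most peaks, drawn to scale from the first base of the chain. Both kinds of bar start at 0 and overlap. On II the peaks to the right of the eighth stand near or below 2.10 times the input, and on V the last 2 peaks stand out, with ratios of 2.90 and 3.56.

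The next chains by number of peaks differed in strength throughout. The chain on V from 11672412 to 11683252 had 8 peaks and ratios from 1.53 to 3.53, and its lowest q was 9.20e-133. The 8 peaks of the chain on X from 5116566 to 5125811 had ratios from 1.47 to 1.87 and a lowest q of 4.16e-31. These ranges overlap from 1.53 to 1.87, and the chains spanned 10.8 and 9.25 kb. On IV, the chain of 7 peaks from 6092199 to 6100376 ended in its strongest peak, with q = 3.62e-105 and a ratio of 4.84, beside a peak of q = 0.00167 and a ratio of 1.42. The other chains of 7 on IV and III in this group, from 3647469 to 3654583 and from 5467848 to 5474541, had ratios of up to 2.98 and 3.50. On I, the largest chain, from 7547576 to 7553857, had 7 peaks, of which 1 had q = 2.49e-48 and the others had q values of 1.80e-09 or more.

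Of the 3 longest chains, the 12-peak chain on II held several wide peaks, and the other two, on V, held 1 very wide peak with smaller ones beside it. On V from 10711616 to 10731397, a peak of 8610 bp held 52.8% of the chain's ChIP tags at a ratio of 1.49. In the same chain, a peak of 915 bp had the highest ratio, 3.18. On V from 6221177 to 6235178, a peak of 8209 bp held 78.3% of the ChIP tags, the largest such share among the 63 chains, at a ratio of 1.45. The 2 wide peaks are the widest members. Pooled over its peaks, the latter chain had the lowest ratio of ChIP to input, 1.51. The highest share of span inside peaks, 85.5%, was that of the 6-peak chain on III from 9697214 to 9705536, whose pooled ratio of 1.56 was the next lowest. Its 6 peaks were 217 to 260 bp apart and had ratios from 1.30 to 1.91. Across the 63 chains, Spearman's rho between span and pooled ratio was −0.27, a description in which both values share the same peak calls.

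The shortest chains were made of narrow peaks and had higher pooled ratios than the 3 longest, which had 1.69, 2.17 and 1.51. The shortest, on III from 10234448 to 10237301, had 5 peaks of 163 to 655 bp in 2854 bp and a pooled ratio of 2.92. The next, on V from 9441562 to 9445360 and on III from 8292618 to 8296417, spanned 3799 and 3800 bp, with pooled ratios of 2.52 and 2.79. The sparsest chain, on IV from 8238745 to 8243516, had only 31.5% of its span in peaks. Of its 7 peaks, 1 of 567 bp had q = 1.62e-41 and the others were 86 to 283 bp wide, with q values of 3.10e-09 or more.

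Among the 5 chains with the lowest q, 4 held strong peaks beside weak ones. On I from 9940266 to 9947424, the fifth of 6 peaks had q = 6.34e-247, with 1732 ChIP and 290 input tags and a ratio of 5.97, and the fourth had q = 0.000211 and a ratio of 1.38. On V from 12548046 to 12560901, the first 3 of 5 peaks were 3065, 3400 and 3365 bp wide, with q values of 4.26e-174, 1.44e-226 and 1.11e-143 and ratios of 3.14, 3.00 and 2.57. This chain combined width with enrichment, unlike the wide peaks of low ratio above. On IV from 8525964 to 8533126, peaks of 3019 and 1699 bp had q values of 5.90e-206 and 4.82e-135, and the weakest of the 5 peaks still had q = 5.35e-12 and a ratio of 2.44. The last 2 had 1 dominant peak each. It was the first of 5 on X from 15309987 to 15315533 (q = 2.40e-182, 61.6% of the ChIP tags) and the last of 5 on III from 4095434 to 4101434 (q = 2.97e-182, 67.7%). The members, 3.66% of the list, included 3 of its 25 peaks of lowest q, on I, V and IV. The 12 ranks missing at the top of the list are not among these 25.

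Strength differed within chains and also between them. The peak of lowest q had a median −log10 q of 83.5 over the 63 chains (quartiles 51.5 and 132.9) and a median ratio of 3.49, while the other 309 members had medians of 14.97 and 2.23. The first set was picked for its low q, so this measures only the spread inside chains. The highest ratio in a chain was a median of 2.24 times the lowest, from 1.28 to 4.64 times. Of the sum of squares over members, 36.9% for log2 ratio and 23.2% for −log10 q lay between chains. It would be 16.7% if members did not differ by chain, and this was not tested. The peak with most ChIP tags held a median of 33.1% of a chain's tags, and over 50% in 7 chains. A q under 1e-20 was listed for 2 or more peaks in 51 chains, for 1 in 11 chains and for none in 1, on V from 19524551 to 19529665. In 2 chains each of the 5 peaks had a q under 1e-20, on IV from 4395987 to 4403225 and on III from 744364 to 750465. The ratios were 1.94 to 3.76 in the former and 2.92 to 4.16 in the latter. These 3 chains and the next were named after their values were seen. The highest pooled ratio, 4.50, was that of a 6-peak chain on II from 8193787 to 8200213, whose peaks had ratios from 2.91 to 6.94.

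The strongest peak showed no preferred place. It lay inside the chain rather than at an end in 41 of 63 chains (65.1%), and 246 of the 372 members (66.1%) lay inside. Inside and end peaks had median widths of 542 and 509 bp, median −log10 q of 21.8 and 19.4, and median ratios of 2.43 and 2.35. The quartiles of the ratio were 1.84 and 3.17 inside and 1.82 and 3.12 at the ends. The peak of lowest q was also the widest of its chain in 34 chains and had the highest ratio in 36.

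Set beside the rest of the list, members were wider and had lower q values and higher ratios. Their median width was 527.5 bp (quartiles 359 and 846) against 418 bp (306 and 612) in the other 9787 peaks. The median −log10 q was 21.0 (7.03 and 52.4) against 9.88 (4.65 and 24.4). The median ratio was 2.38 (1.83 and 3.16) against 2.03 (1.64 and 2.71), so the quartile ranges overlapped widely. The 5901 peaks with no neighbour within 1000 bp had medians of 398 bp, 8.47 and 1.96. Chains of 2, with 2270 peaks, had 442 bp, 10.97 and 2.08, and the 1616 peaks in chains of 3 or 4 had 482.5 bp, 16.1 and 2.25. The medians were higher at each step from lone peaks to chains of 6, whose 114 peaks had a median width of 533.5 bp, a median −log10 q of 30.01 and a median ratio of 2.83. In the 103 peaks of chains of 7 or more the median width was higher still, 563 bp, while the median −log10 q was 17.1 and the median ratio 2.00. Input per kb was a median of 269 tags in chains of 6 and 346 in chains of 7 or more, and its part in this drop was not tested. The drop was read over peaks, which came from 19 chains of 6 and 13 chains of 7 or more. Pooled ratios ran from 1.56 to 4.50 in the former. In the latter they ran from 1.51 to 3.55, the highest on IV from 10609881 to 10617444. Spearman's rho across all chains between number of peaks and pooled ratio was −0.088, a description only.

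**Figure D3:**
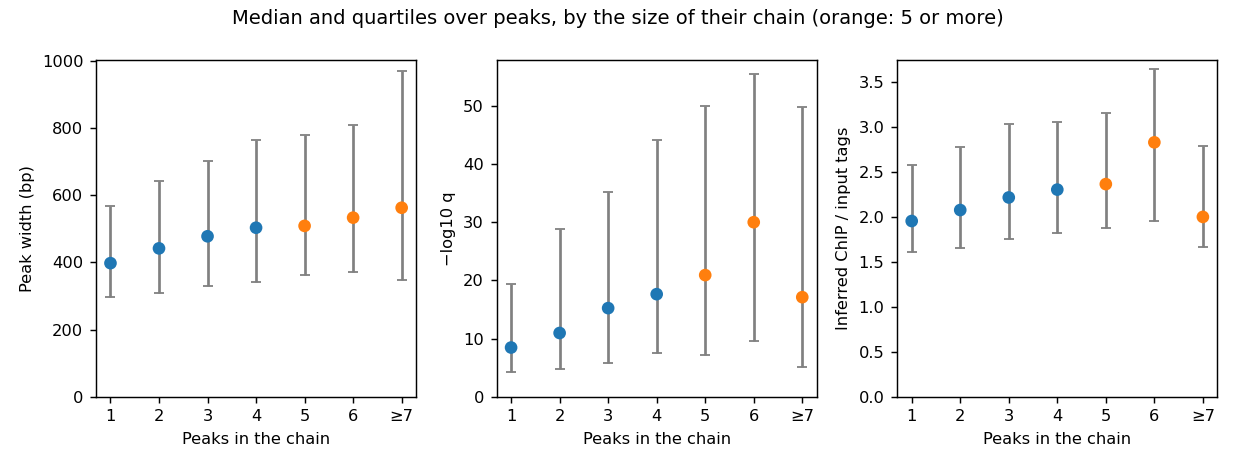
Medians (points) with quartiles (bars) over peaks of width in bp, −log10 q and ratio of inferred tags, ChIP over input, by the number of peaks in the chain, where 1 means no neighbour within 1000 bp. All 3 medians increase from 1 to 6 peaks, and those of −log10 q and the ratio are highest in chains of 6 (30.01 and 2.83) and lower in chains of 7 or more (17.1 and 2.00).

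Counts past fixed values went the same way, and since the rule and these values share the peak calls they are descriptions only. A q under 1e-20 was listed for 190 of 372 members (51.1%) and for 30.6% of all peaks. A q under 1e-100 was listed for 39 members (10.5%) and for 3.00% of all peaks. Weak calls were not missing from the chains, since 22 members (5.91%) had a q over 0.001, against 10.9% of all peaks. A ratio of at least 3 was found in 110 members (29.6%) and in 19.3% of all peaks. Broad peaks of at least 1200 bp made up 45 members (12.1%), in 27 chains, and 5.78% of all peaks. Peaks of at most 50 bp numbered 2 members (0.538%), against 1.82% of all peaks. These were an 8 bp peak on IV from 5563956 to 5563963, with 51 ChIP tags, and a 17 bp peak on X from 8568019 to 8568035, with 54. With so many tags in so few bases, values per kb cannot be relied on in the narrowest peaks. Whether tags reach beyond the called ends was not tested.

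Because a wide peak collects more tags and so a lower q, ratios were also read within classes of width. In peaks from 400 to under 700 bp, the median ratio was 2.64 in 130 members, 2.50 in chains of 3 or 4, 2.22 in chains of 2 and 1.94 in lone peaks. From 700 to under 1200 bp, it was 2.58 in 82 members, 2.19 in chains of 3 or 4, 2.12 in chains of 2 and 1.85 in lone peaks. At 1200 bp or more, it was 2.57 in 45 members (quartiles 2.00 and 3.06) and 1.75 in lone peaks (1.42 and 2.17). Chains of 3 or 4 had 2.15 and chains of 2 had 1.79 in this class. In narrower peaks the sets lay closer together. From 200 to under 400 bp the medians were 2.21 in 89 members and 1.98 in lone peaks, and under 200 bp they were 1.90 in 26 members and 2.08 in lone peaks. Broad members thus kept the ratio of mid-sized ones. In lone peaks, chains of 2 and chains of 3 or 4, the ratio was lower in each wider class from 400 bp up.

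Both kinds of tag per kb differed between wide members and wide lone peaks. At 1200 bp or more, members had a median of 849 ChIP tags per kb against 704 in lone peaks, and 327 input tags per kb against 384. Chains of 3 or 4 lay between, with 757 ChIP and 350 input tags per kb, as did chains of 2, with 749 and 370. From 400 to under 700 bp, the medians of members and lone peaks were 811 and 769 ChIP tags per kb and 289 and 364 input tags per kb. Chains of 3 or 4 had 811 and 313 there. Over all widths, members had 301 input tags per kb and the other peaks 320. Spearman's rho between width and ratio was 0.19 across members and −0.054 across the other peaks, a description over peaks that share libraries and neighbourhoods.

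**Figure D4:**
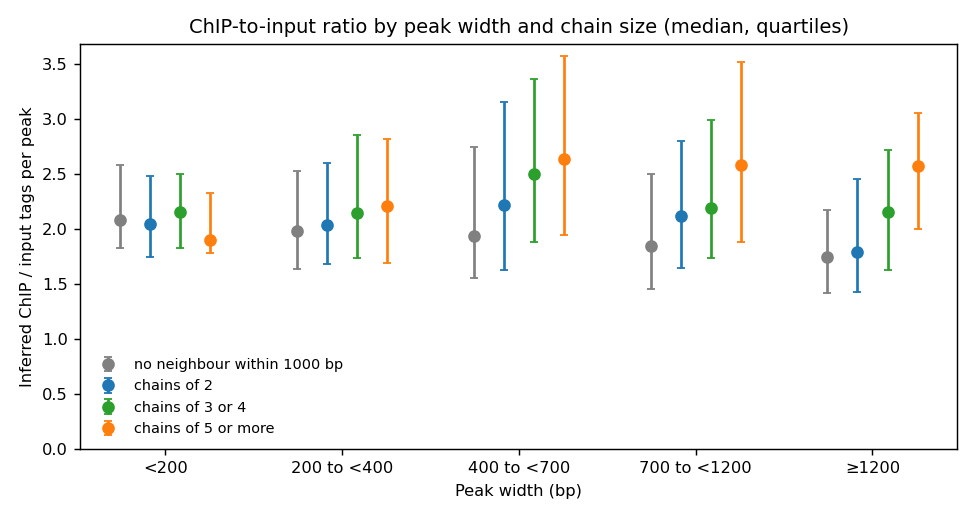
Median ratio of inferred tags, ChIP over input (points), with quartiles (bars) in 5 classes of peak width, for lone peaks, chains of 2, chains of 3 or 4 and chains of 5 or more. From 400 bp up the chains of 5 or more have the highest median in each class (2.64, 2.58 and 2.57), and under 200 bp they have the lowest (1.90).

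Chains lay on all 6 chromosomes but were few on X. Chromosomes III and IV had 14 chains each, V had 12, II had 10, I had 9 and X had 4. Of the peaks on X, 23 of 1748 (1.32%) were members, against 349 of 8411 (4.15%) on the autosomes, where the lowest share was 2.98% on I and the highest 4.85% on III. Close neighbours as such were nearly as common on X, where 24.0% of gaps were under 1000 bp, against 25.6% on the autosomes. The 4 chains on X differed from each other. Pooled ratios were 1.64 in the 8-peak chain and 1.68 in the chain from 8565748 to 8569610, which together hold 13 of the 23 members, and 2.43 and 2.45 in the chains from 15309987 to 15315533 and from 10227158 to 10232684. Taken over all 4, members had a median −log10 q of 5.26 and a median ratio of 1.67, below the 9.95 and 1.93 of the other peaks on X. On each of the 5 autosomes members lay above the other peaks, with median ratios from 2.29 on V to 2.69 on II against 2.01 to 2.13. In a division of the X chains chosen after the data were seen, the 13 members of the first pair had a median ratio of 1.59 and a median −log10 q of 5.26. The 10 members of the second pair had 1.76 and 5.09, so these chains held a few strong peaks among weaker ones.

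**Figure D5:**
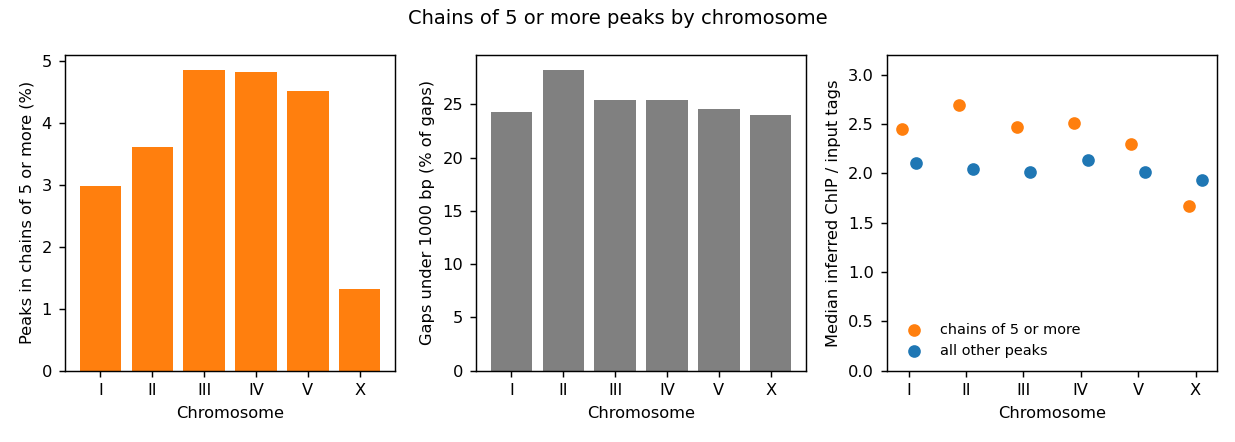
For each chromosome, the percent of its peaks in chains of 5 or more, the percent of its gaps between neighbours that are under 1000 bp, and the median ratio of inferred tags, ChIP over input, in members (orange) and all other peaks (blue). X has the lowest percent of members (1.32%) at a like percent of short gaps (24.0%), and is the chromosome where members lie below the other peaks (1.67 and 1.93).

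Within chromosomes, chains lay mostly toward the centre. The central part ran from 0.25 to 0.75 of the span between the outermost peaks and held 50 of the 63 chains. It held 299 members (80.4%), against 63.3% of all peaks and 58.4% of lone peaks. The members' share was above that of the other peaks on each of the 6 chromosomes, with 93.2% and 69.1% on V, the widest difference, and 70.0% and 61.8% on III, the narrowest. The rule picks stretches where peaks are close together, and peaks were denser in the centres. How much of the members' central share follows from this was not tested. The share did not set members apart from the chains just outside the rule, since 80.7% of the peaks in chains of 4 lay there. Chains of 3 had 70.0%, chains of 5 had 71.0%, chains of 6 had 89.5% and chains of 7 or more 84.5%.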

How the data were processed

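The members and the measures were chosen with earlier results of these data known. The authors deposited 1 combined peak list from PeakSeq. Build WS180 is named in the header and the caller in the source column, per the file headers. Its values are q-values, 1 per peak, as the authors deposited them. How replicates were combined, the aligner, read filters and depth are not given in the sources used here.

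Peaks were sorted by chromosome and start and joined where the gap was under 1000 bp. Tag counts were inferred by taking q × rank / candidate regions as a binomial tail with equal chance for ChIP and input tags. A search over the last 40 peaks gave 16906 candidates and ranks 12 above list order. At a relative tolerance of 1e-11, 10155 peaks matched 1 pair of whole counts, 2 matched 2 pairs and 2 matched none, and these 4 have no tags here. With ranks shifted by 1 down or up, 0 and 1 peaks matched. Both steps were tested on simulated data, with q values made by this same formula. That checks the code and not whether the caller computed q in this way.

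Chains were named for most peaks, lowest q, most peaks on a chromosome, longest and shortest span, and highest and lowest share of span in peaks, and a few others after their values were seen. No test was run, since there is no value per library. Positions are midpoints, coordinates are 1-based, and genes and sequences are not given because no genome of WS180 was used here. Alternatives changed the gap, the smallest chain or the peaks admitted. The tools were Python (3.11.15) with numpy (2.4.6), pandas (2.3.3), scipy (1.17.1) and, for the figures, matplotlib (3.10.9).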

Additional observations from a re-analysis of the deposited data

How the results depend on the processing

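Members had larger medians of width, −log10 q and ratio, and a larger central share, than the other peaks under each of the 6 alternatives. The number of chains depended on the rule, with 12 chains (68 peaks) at a gap under 500 bp, 234 (1426) at a gap under 2000 bp, 203 (932) with at least 4 peaks and 32 (217) with at least 6. Without peaks of q over 0.001 there were 51 chains of 293 peaks, and without peaks under 50 bp there were 62 of 366. In the order gap under 500 bp, gap under 2000 bp, at least 4 peaks, at least 6 peaks, q of at most 0.001 and width of at least 50 bp, the median width was 519, 473, 517.5, 540, 563 and 535.5 bp. The median −log10 q was 18.2, 16.3, 18.3, 23.2, 27.4 and 21.8, and the median ratio 2.18, 2.29, 2.34, 2.41, 2.57 and 2.42. The other peaks had ratios from 2.01 to 2.14. The central share moved to 74.96% at a gap under 2000 bp and 87.1% with at least 6 peaks. No paired analysis was possible because each peak has 1 value for both replicates together. Leaving out a replicate was not run, as that needs a value per library. Depth is unknown, so weak sites between members may have gone uncalled.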

Other observations

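Further peaks lay close outside some chains. In 33 of 63 chains a further peak lay less than 2000 bp away, and in 17 the nearest outside peak was at least 5000 bp away. The median distance was 1921 bp and the largest 18451 bp. No like count was made for lone peaks or shorter chains, so whether this is usual for the list is unknown. Chains were mostly far from each other, with a median of 491 kb to the nearest chain on the same chromosome. In 9 chains it was under 100 kb. The nearest pair lay on III, from 13657136 to 13661637 and from 13708488 to 13714198, 46.9 kb apart and outside the central part. On I, 3 chains followed each other from 7547576 to 7553857, from 7608288 to 7613311 and from 7688063 to 7692657. These observations were picked after their values were seen and were not tested.

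The highest ratio of any member was 8.44, in a 406 bp peak on I from 6998420 to 6998825, with 481 ChIP and 57 input tags. The lowest was 1.20, in a 564 bp peak on IV from 11565924 to 11566487, with 441 ChIP and 368 input tags and q = 0.00942. The ChIP counts of these peaks were close, and the input counts were not. Per kb, however, both differed, with 1185 and 782 ChIP tags and 140 and 652 input tags, in that order.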
